A study of Mus musculus with 2 samples.

Results

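Collagen modification and crosslinking enzymes were followed through the stromal cells of mouse long-bone periosteum. The 10 genes were chosen by name among 32285 mouse genes in the count matrices. They were the prolyl 4-hydroxylase subunits P4ha1 and P4ha2, the lysyl hydroxylases Plod1 and Plod2, the chaperones Serpinh1 and Fkbp10, the procollagen C-proteinase enhancer Pcolce, and the lysyl oxidases Lox, Loxl1, and Loxl2. The 2 libraries of 10x scRNA-Seq, named here library 1 and library 2 after their replicate numbers, came from WT C57BL6 mice at 4 weeks of age. The cells had been sorted as CD45-CD31-Ter119-, so endothelial and blood cells were meant to be removed, and no library of another genotype or treatment was compared. How many mice stood behind each library is not given in the sources used here, so p-values measure the spread between these 2 libraries.

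Fibrillar collagen chains are modified while they are being made. In the endoplasmic reticulum, prolyl 4-hydroxylases stabilize the triple helix, lysyl hydroxylases prepare the sites that are later crosslinked, and Serpinh1 (HSP47) binds the folded procollagen. Outside the cell, Pcolce helps release the C-propeptide, and lysyl oxidases start the covalent crosslinks of collagen and elastin. Osteoblasts deposit mainly type I collagen, made of Col1a1 and Col1a2 chains, and growing chondrocytes deposit mainly type II collagen, made of Col2a1 chains.

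Library 1 held 9932 barcodes with 100808649 UMIs and library 2 held 3659 barcodes with 33306452 UMIs, of which 6276 and 2893 cells were kept. Most kept cells had blood-cell markers despite the sort, and 448 and 1123 stromal cells remained. Stromal cells held 95.3% and 99.6% of P4ha2 UMIs and 98.2% and 99.8% of Serpinh1 UMIs, whereas P4ha1 and Plod1 in library 1 had 62.6% and 56.6%. Both libraries are labelled WT, but library 2 held 6837 EGFP UMIs, including 2893 in the Spp1-high class described below, and both held tdTomato UMIs. The part of these reporter sequences in the results was not tested. The libraries shared 8 barcodes, of which 7 were kept in both.

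The sequence before the start site was shown for 3 members, P4ha2, Serpinh1, and Plod1. RefSeq windows were found for 5 members, and only these 3 overlapped neither an annotated exon nor the RefSeq span of the gene. The choice did not follow the calls. P4ha1 and Fkbp10 are not shown. Like P4ha2 and Serpinh1, they were called higher in osteoblast-like and in chondrocyte-like cells than in P-SSC-like cells. Plod1 was called in neither class. The 250 bases upstream of the RefSeq start (GRCm38.p6) overlapped no annotated exon for these 3 genes, although the GENCODE span of P4ha2 begins upstream of its window. Capitals mark ACGTG or GCGTG on either strand, the core letters of the hypoxia response element, which is background and not evidence of binding.
P4ha2: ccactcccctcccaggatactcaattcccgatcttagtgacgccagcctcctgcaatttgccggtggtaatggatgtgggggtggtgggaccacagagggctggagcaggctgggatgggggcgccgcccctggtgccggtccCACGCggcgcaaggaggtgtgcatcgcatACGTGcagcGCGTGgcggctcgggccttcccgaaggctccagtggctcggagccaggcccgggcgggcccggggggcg
Serpinh1: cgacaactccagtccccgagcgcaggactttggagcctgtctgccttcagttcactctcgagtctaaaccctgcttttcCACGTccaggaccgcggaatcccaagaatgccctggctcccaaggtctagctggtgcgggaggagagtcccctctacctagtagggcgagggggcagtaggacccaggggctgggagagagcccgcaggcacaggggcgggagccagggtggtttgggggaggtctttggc
Plod1: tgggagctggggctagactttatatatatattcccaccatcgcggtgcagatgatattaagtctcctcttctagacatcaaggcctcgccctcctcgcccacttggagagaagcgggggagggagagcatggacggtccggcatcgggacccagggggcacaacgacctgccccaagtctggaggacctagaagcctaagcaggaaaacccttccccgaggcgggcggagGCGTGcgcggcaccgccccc
The P4ha2 window was chr11:54100674-54100923 on the plus strand, the Serpinh1 window was chr7:99353240-99353489 on the minus strand, and the Plod1 window was chr4:147936777-147937026 on the minus strand. In the GENCODE annotation of GRCm38, the genes span chr11:54100095-54131665 (P4ha2), chr7:99345376-99353239 (Serpinh1), and chr4:147909753-147936767 (Plod1). P4ha2 held 1 match to ACGTG and 2 to GCGTG, Serpinh1 held 1 match to ACGTG, and Plod1 held 1 match to GCGTG. Of 32851 RefSeq windows of the same length, 16.6% held ACGTG and 28.2% held GCGTG.

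Stromal clusters were named from marker genes, and 5 of the named classes had at least 10 cells in each library and entered the tests. These were P-SSC-like cells (21 and 296 cells in libraries 1 and 2), osteoblast-like cells (94 and 187), chondrocyte-like cells (27 and 120), a Spp1-high chondrocyte-like class led by Mgp, Aldh1a3, and EGFP (69 and 74), and skeletal muscle-like cells (68 and 63). P-SSC is the paper's short form of periosteal skeletal stem cell. The class was named from Pdgfra, Pdpn, Ly6a, Cd34, Clec3b, Dpp4, Pi16, Mfap5, Thy1, and Gas1. This list did not hold Prrx1, Lrp1, or the CD13 gene, which the paper used for mouse P-SSCs. The name is a label, and whether these cells are stem cells was not tested. The P-SSC-like class joined a cluster led by Mfap5, Ccl2, and Pi16 and a cluster led by Mfap4, Eln, and Apod. All 10 of its markers were found in the first cluster. In the second, 8 were found, and none was among the 10 leading genes. The osteoblast-like class joined a cluster led by Ifitm5 and Bglap3 and one led by Plk4, Gal, and Bglap, whose leading genes also held the immune gene Cd74. Tenocyte-like (2 and 92), Lepr+ stromal-like (58 and 7), and smooth muscle-like cells (4 and 21) were described without a test. The members and collagens were left out of the genes used to cluster the cells. A planned comparison of osteogenic progenitor-like with osteoblast-like cells was not made, because no cluster of the stromal cells took that name. When all kept cells were clustered, a cluster of 146 cells had it.

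The collagens separated the classes widely. Counts of 3′ UMIs are not divided by gene length, so levels are compared between classes and not between genes. Col1a1 stood at 102700 and 91220 CPM (UMIs scaled to the same total in each sum) in osteoblast-like cells of libraries 1 and 2, at 5464 and 9626 in P-SSC-like cells, and at 82.5 and 623 in chondrocyte-like cells. Col2a1 stood at 51350 and 38930 CPM in chondrocyte-like cells, at 92.7 and 93.3 in osteoblast-like cells, and at 0 and 8.99 in P-SSC-like cells. Col1a2 stood at 75240 and 42560 CPM in osteoblast-like cells against 6671 and 7260 in P-SSC-like cells.

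**Figure D1:**
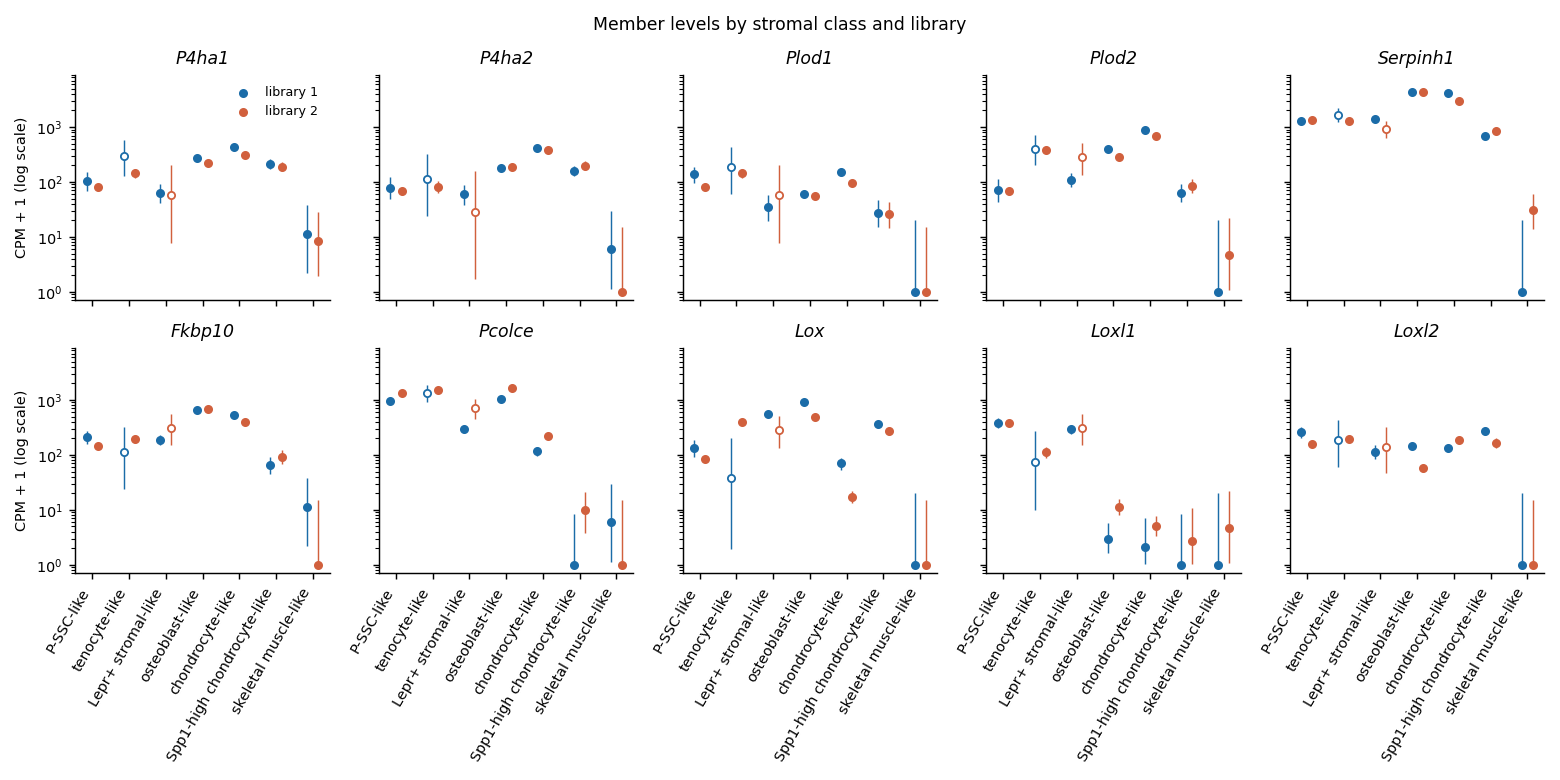
Level of each member in 7 stromal classes, as CPM + 1 on a log axis, for library 1 (blue) and library 2 (orange). Bars are exact 95% Poisson intervals that cover counting error only, and open circles mark sums of fewer than 10 cells. Loxl1 stood at 386.6 and 383.9 CPM in P-SSC-like cells and at no more than 10.3 CPM in osteoblast-like and both chondrocyte-like classes.

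P4ha1 and P4ha2 levels were ordered chondrocyte-like, osteoblast-like, P-SSC-like in each library, although the first step was not called for either gene in the test below. P4ha1, the widely expressed catalytic subunit, stood at 435.5 and 305.3 CPM in chondrocyte-like cells of libraries 1 and 2, at 272 and 224 in osteoblast-like cells, and at 101.5 and 78.4 in P-SSC-like cells. P4ha2, the second catalytic subunit, stood at 412.4 and 380.7, at 180.5 and 187, and at 78.1 and 66.9 CPM in the same order. For both genes no library of 1 class overlapped the next class in this order. With 2 libraries per class this also occurs in genes that were not called, such as Plod1 between osteoblast-like and P-SSC-like cells. The share of all genes without overlap was not computed.

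Lysyl hydroxylases differed from each other. Plod2, which hydroxylates lysines of the collagen telopeptides, had 896.4 and 683.2 CPM in chondrocyte-like cells, against 402.4 and 284.9 in osteoblast-like and 70.3 and 66.6 in P-SSC-like cells. Plod1, which acts on helical lysines, had 150.7 and 95.03 CPM in chondrocyte-like cells, against 60.6 and 55.6 in osteoblast-like and 136.7 and 81.7 in P-SSC-like cells, so that chondrocyte-like and P-SSC-like cells overlapped. In tenocyte-like cells of library 2, Plod2 stood at 382 CPM beside 33030 CPM of Col1a1.

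The chaperones had higher CPM in osteoblast-like and chondrocyte-like cells than in P-SSC-like cells. Serpinh1 stood at 4255 and 4341 CPM in osteoblast-like cells, at 4133 and 2944 in chondrocyte-like cells, and at 1289 and 1338 in P-SSC-like cells. Fkbp10, a prolyl isomerase that assists lysyl hydroxylation, stood at 660 and 681, at 525 and 394, and at 211 and 144 CPM in the same order. Other classes with much collagen had less of them. Tenocyte-like cells of library 2 had 1311 CPM of Serpinh1 and 195.5 of Fkbp10 beside 33030 CPM of Col1a1. Spp1-high cells had 691 and 833 CPM of Serpinh1. In B cell-like cells of the same libraries, whose UMIs may come from free RNA or from the cells themselves, Serpinh1 was at 2.64 and 3.09 CPM.

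Pcolce was high in osteoblast-like and P-SSC-like cells and low in chondrocyte-like cells. Osteoblast-like cells had 1020 and 1623 CPM of it and P-SSC-like cells 957 and 1357, which overlapped, whereas chondrocyte-like cells had 115.5 and 218.3. In Spp1-high cells, 0 of 491831 UMIs in library 1 were Pcolce, for which a floor of 3 counts is 6.1 CPM and the exact 95% upper limit is 7.5 CPM, and library 2 had 5 UMIs (8.82 CPM). The annotation marks the Pcolce locus as overlapping, and the sources used here do not state that counting used strand.

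The 3 lysyl oxidases had 3 different patterns. Lox, the family's founding member, stood at 908.7 and 496.7 CPM in osteoblast-like cells, at 132.8 and 83.5 in P-SSC-like cells, and at 69.3 and 16.1 in chondrocyte-like cells. Loxl1, which crosslinks tropoelastin, stood at 386.6 and 383.9 CPM in P-SSC-like cells but at 2.01 and 10.3 in osteoblast-like and 1.10 and 4.16 in chondrocyte-like cells. Loxl2, which also acts on basement membrane collagen, stood at 257.8 and 157.2 CPM in P-SSC-like, 145.2 and 56.3 in osteoblast-like, and 133.1 and 188.9 in chondrocyte-like cells. In library 2, the P-SSC-like clusters led by Mfap5 and by Mfap4 had Loxl1 at 442 and 274.2 CPM and Loxl2 at 196.5 and 83.1 CPM. Chondrocyte-like cells overlapped both other classes in Loxl2, and osteoblast-like cells had lower CPM than P-SSC-like cells. The latter difference was not called in the test below, which scales the sums.

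Lox was also high where type I collagen was low. In Lepr+ stromal-like cells of library 1, Lox stood at 559 CPM and Loxl1 at 291.5 CPM while Col1a1 stood at 338 CPM, and the 7 cells of library 2 had 280.3 CPM of Lox and 4093 CPM of Col1a1. Skeletal muscle-like cells had no Lox, Loxl2, or Plod1 UMI in either library.

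Osteoblast-like cells were then compared with P-SSC-like cells. Of the 10 members, 6 were higher and 1 was lower, against 7.89% of 8450 tested genes called higher and 12.2% called lower (edgeR quasi-likelihood test, Benjamini-Hochberg adjusted p under 0.05). The higher members were P4ha1, P4ha2, Plod2, Lox, Serpinh1, and Fkbp10, and the lower member was Loxl1. The median log2 fold change was 1.93 over the members and 0.00 over all tested genes.

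Lox had the largest rise, with a log2 fold change of 3.26 ± 0.64 (SE; edgeR, adjusted p = 0.0044). Plod2 rose by 2.84 ± 0.45 (adjusted p = 0.00066) and Fkbp10 by 2.47 ± 0.51 (adjusted p = 0.004), both in edgeR. Loxl1 fell by 5.41 ± 0.74 (edgeR, adjusted p = 0.00018). Plod1 (-0.34 ± 0.38), Loxl2 (-0.49 ± 0.52), and Pcolce (0.69 ± 0.62) passed no threshold.

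Some calls changed in alternatives that were added after the data had been seen. Serpinh1, at 2.23 ± 0.60 (edgeR, adjusted p = 0.022), was no longer called when any 1 of the 4 compared sums was left out, with adjusted p from 0.056 to 0.13. P4ha2, at 1.87 ± 0.46 (edgeR, adjusted p = 0.01), was not called without either P-SSC-like sum (0.065 and 0.068), and Lox was not called without that of library 2 (0.055). Without scaling factors between sums the median gene shifted by -0.50 on the log2 scale, the share of calls that were higher went from 39.3% to 21.6%, and P4ha2 was not called (adjusted p = 0.057).

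Chondrocyte-like cells were compared with P-SSC-like cells in the same model. Of the members, 5 were higher and 2 were lower, against 10.2% of tested genes called higher and 13.9% called lower. P4ha1, P4ha2, Plod2, Serpinh1, and Fkbp10 were higher, and Loxl1 and Pcolce were lower. The median over the members was 1.21 and that over all tested genes was 0.01. Both comparisons used the same P-SSC-like sums.

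Plod2 had the largest rise, of 3.92 ± 0.47 (SE; edgeR, adjusted p = 9.8e-05). P4ha2 rose by 2.86 ± 0.47 (edgeR, adjusted p = 0.00075) and P4ha1 by 2.46 ± 0.36 (edgeR, adjusted p = 0.00047). Loxl1 fell by 6.49 ± 0.80 (edgeR, adjusted p = 7.1e-05) and Pcolce fell by 2.40 ± 0.65 (edgeR, adjusted p = 0.015). Lox, at -0.96 ± 0.61 (edgeR, adjusted p = 0.3), was called lower with the library as a replicate block (adjusted p = 0.029) or without the chondrocyte-like sum of library 1 (adjusted p = 0.029). With Spp1-high cells merged into the chondrocyte-like class it stood at 0.73 (edgeR, adjusted p = 0.4).

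Serpinh1 was close to the threshold, at 1.82 ± 0.60 (edgeR, adjusted p = 0.045), and lost its call when any of the 4 compared sums was left out (0.066 to 0.19). The call was also lost with DESeq2 size factors (0.058), clustering at resolution 0.4 (0.066), pathway genes kept in clustering (0.06), called doublets removed (0.08), Spp1-high cells merged (0.062), or no scaling factors (0.078). Fkbp10, at 1.80 ± 0.50 (edgeR, adjusted p = 0.019), lost its call without either P-SSC-like sum or without the chondrocyte-like sum of library 1 (0.06 to 0.1), and without scaling factors (0.07). Pcolce lost it without the P-SSC-like sum of library 2 or the chondrocyte-like sum of library 1 (0.11 each). Without scaling factors the median gene shifted by -0.38, and the share of calls that were higher went from 42.4% to 26.2%.

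**Figure D2:**
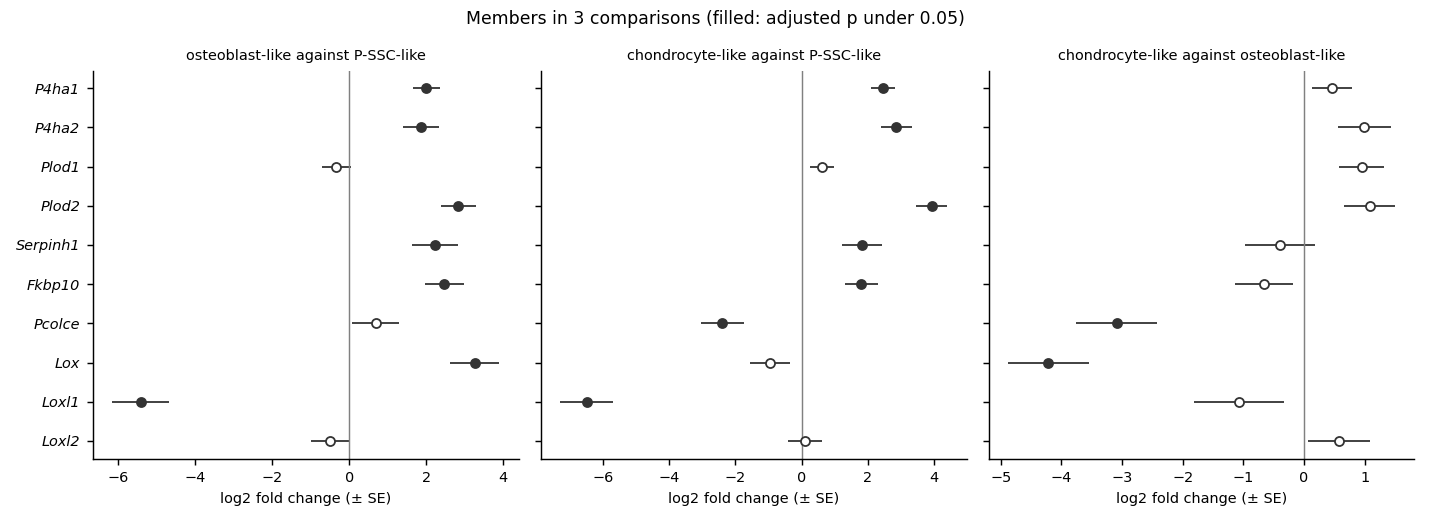
Log2 fold change of each member with its SE in 3 comparisons, from 1 edgeR fit of 10 sums over 5 classes. Filled circles passed an adjusted p of 0.05, as 7, 7, and 2 of the 10 members did.

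Chondrocyte-like cells differed from osteoblast-like cells in 2 of the 10 members, both lower, against 6.58% of tested genes called lower and 6.93% called higher. Lox fell by 4.22 ± 0.67 (SE; edgeR, adjusted p = 0.0015) and Pcolce fell by 3.09 ± 0.67 (edgeR, adjusted p = 0.0058). Pcolce was not called without the chondrocyte-like sum of library 1 (adjusted p = 0.056). Col1a1 and Col2a1 moved in opposite directions between these classes, at -8.19 (edgeR, adjusted p = 0.00062) and 8.80 (edgeR, adjusted p = 9.7e-05).

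No member was called higher in that comparison by edgeR with the design used throughout, and 3 were at an unadjusted p under 0.05. Plod2 was at 1.08 ± 0.42 (edgeR, adjusted p = 0.12), P4ha2 at 0.99 ± 0.44 (edgeR, adjusted p = 0.18), and Plod1 at 0.95 ± 0.37 (edgeR, adjusted p = 0.14), each higher in chondrocyte-like cells in both libraries. With the library as a replicate block 4 members were called, Plod1 (adjusted p = 0.043) and Plod2 (0.035) with Lox and Pcolce. DESeq2 also called 4, with P4ha2 (0.022) and Plod2 (0.037) in addition, and edgeR without skeletal muscle-like cells called the same 4, P4ha2 at 0.044 and Plod2 at 0.047. Serpinh1 differed by -0.40 ± 0.58, less than its error.

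Partners of the members were counted from 6 lists of collagen biosynthesis and hypoxia-inducible genes. Over all tested genes, 7.89% were called higher and 12.2% lower in osteoblast-like than in P-SSC-like cells, 10.2% and 13.9% when chondrocyte-like cells were set against P-SSC-like cells, and 6.93% and 6.58% when they were set against osteoblast-like cells. With 3 to 11 genes tested in a list, a count of 1 or 2 is not read as a result about the list. Of 8 prolyl hydroxylation partners, 3 were higher and 1 lower in osteoblast-like than in P-SSC-like cells, and 5 were higher in chondrocyte-like cells. Of 11 tested export and secretory genes, 8 were higher in osteoblast-like and 3 in chondrocyte-like than in P-SSC-like cells, including the retrieval receptors Kdelr2 and Kdelr3 in both. Of 7 tested hypoxia-inducible genes outside the collagen pathway, 5 rose and none fell in chondrocyte-like relative to P-SSC-like cells, while osteoblast-like cells had none higher and 1 lower. Of 7 lysyl hydroxylation and glycosylation partners, 2 were higher and 1 lower in osteoblast-like cells and 3 were higher in chondrocyte-like cells. Of 3 crosslinking partners, 1 was higher and 1 lower in osteoblast-like cells and 2 were higher in chondrocyte-like cells, and of 4 tested procollagen processing genes, 1 was higher and 1 lower in osteoblast-like cells and 1 was lower in chondrocyte-like cells. In the order prolyl, lysyl, crosslinking, processing, export, and hypoxia, osteoblast-like cells had median log2 fold changes against P-SSC-like cells of 1.14, 0.26, 0.95, 0.68, 1.62, and 0.25. For chondrocyte-like cells these medians were 1.52, 0.99, 2.46, -0.70, 1.00, and 2.63. Between chondrocyte-like and osteoblast-like cells, 2, 2, 2, 1, 0, and 4 genes of these lists were higher and 0, 1, 0, 2, 1, and 0 were lower, with the medians 0.32, 0.73, 1.51, -2.20, -0.64, and 2.30.

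Colgalt2, Adamts2, and P3h2 were among the partners with the largest called changes. Colgalt2, a collagen galactosyltransferase, had 0 UMIs in osteoblast-like cells of both libraries and 130.9 and 99.7 CPM in chondrocyte-like cells, at least 100.5-fold higher by a floor of 3 counts per library (edgeR, adjusted p = 3.2e-05). Against P-SSC-like cells, at 23.4 and 13.3 CPM, osteoblast-like cells were at least 13.4-fold lower (edgeR, adjusted p = 0.00026). Adamts2, which removes the N-propeptide of fibrillar procollagens, stood at 1.10 and 5.26 CPM in chondrocyte-like cells, against 220.7 and 157.5 in osteoblast-like and 226.5 and 241.8 in P-SSC-like cells. P3h2, a prolyl 3-hydroxylase, stood at 149.6 and 67.9 CPM in chondrocyte-like cells and at no more than 2.98 CPM in the other 2 classes.

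Loxl4 and P4ha3 followed opposite directions in osteoblast-like cells. Loxl4, a further lysyl oxidase, rose by 4.52 ± 0.70 against P-SSC-like cells (edgeR, adjusted p = 0.00076), from 0 and 1.80 CPM to 33.3 and 23.8. P4ha3, another catalytic subunit of prolyl 4-hydroxylase, fell by 5.47 ± 0.95 (edgeR, adjusted p = 0.0012), from 50.8 and 31.3 CPM to 0 and 0.993. The lower levels of both genes rest on few UMIs, so the sizes of these changes are uncertain. Loxl4 was also called higher in chondrocyte-like than in P-SSC-like cells, by 4.687 ± 0.705 (edgeR, adjusted p = 0.00055), at 19.8 and 47.4 CPM.

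Member UMIs were then set against collagen UMIs of the same cells. In osteoblast-like cells there were 41.5 and 47.6 Serpinh1 UMIs per 1000 Col1a1 UMIs in libraries 1 and 2, and in chondrocyte-like cells 80.5 and 75.6 per 1000 Col2a1 UMIs. Plod2 had 3.92 and 3.12 per 1000 Col1a1 UMIs in osteoblast-like cells and 17.5 and 17.6 per 1000 Col2a1 UMIs in chondrocyte-like cells. P4ha2 was at 1.76 and 2.05 in the former and at 8.03 and 9.78 in the latter.

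P4ha1, P4ha2, Plod1, Plod2, Loxl2, Serpinh1, and Fkbp10, 7 of the 10 members, had more UMIs per collagen UMI in chondrocyte-like than in osteoblast-like cells in both libraries. This ratio divides by Col1a1 in one class and by Col2a1 in the other, and it follows the denominator as well as the member: Serpinh1 and Fkbp10 had lower CPM in chondrocyte-like cells in both libraries. With all 44 collagen genes as the denominator in both classes the count was also 7. Collagens were a larger share of UMIs in osteoblast-like (18.9% and 14.2%) than in chondrocyte-like cells (9.36% and 6.92%), so this denominator does not remove the imbalance. The share of all genes with such ratios was not computed, so the count is not read as a result about the members. Lox and Pcolce were lower in both libraries, with Lox at 8.85 and 5.45 per 1000 Col1a1 UMIs in osteoblast-like cells and at 1.35 and 0.413 per 1000 Col2a1 UMIs in chondrocyte-like cells.

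Collagen UMIs were fewer in P-SSC-like cells. All collagens made up 3.19% and 3.86% of UMIs in P-SSC-like cells, against 18.9% and 14.2% in osteoblast-like cells. Per 1000 collagen UMIs, P-SSC-like cells had 29.96 and 35.1 Pcolce UMIs, and osteoblast-like cells had 5.39 and 11.5. For Loxl1 the values were 12.1 and 9.94 in the former, 0.0106 and 0.0725 in the latter. In Lepr+ stromal-like cells of library 1, where collagens were 0.676% of UMIs, Lox reached 82.6 and Serpinh1 204.4 per 1000 collagen UMIs.

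**Figure D3:**
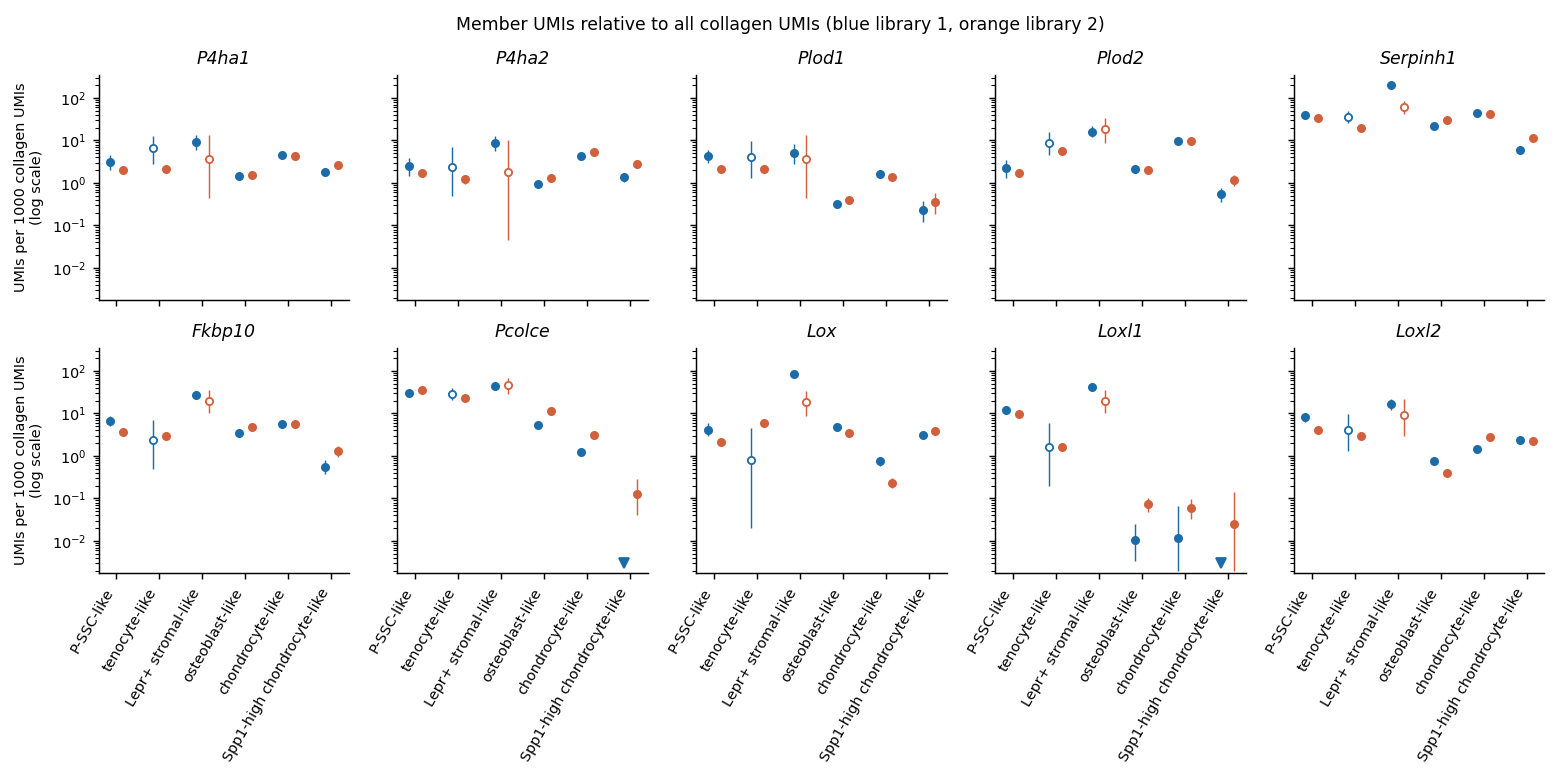
Member UMIs per 1000 UMIs of all collagens (log axis) in 6 stromal classes of library 1 (blue) and library 2 (orange), with exact 95% counting intervals. Open circles mark sums of fewer than 10 cells and triangles mark 0 UMIs, as for Pcolce in library 1 of Spp1-high cells.

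The relation to collagen output was also described across classes, with 13 sums of named classes and 9 of unnamed clusters, some of which carried neutrophil or B cell genes (S100a8 and S100a9, Igkc and Cd79a). Over these 22 sums of class and library, the Pearson correlation of log2(CPM + 1) with Col1a1 ranged from 0.172 (P4ha2) to 0.874 (Pcolce), and that with Col2a1 from -0.377 (Loxl1) to 0.476 (Plod2). Without skeletal muscle-like cells, 20 sums remained and the correlation with Col1a1 was 0.86 for Pcolce, 0.558 for Loxl1, and 0.532 for Fkbp10, and between -0.405 (Loxl2) and 0.419 (Serpinh1) for the others. The value for Loxl1 does not hold in the osteoblast-like sums, where Col1a1 stood at 102700 and 91220 CPM and Loxl1 at 2.01 and 10.3. Sums of 1 library share its depth and free RNA, so the correlations are descriptions.

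Cells of 1 class were also divided into 3 bins of equal size by the share of Col1a1 or Col2a1 in their UMIs, and members were measured against UMIs of genes other than collagens. In osteoblast-like cells, Col1a1 went from 55190 to 150500 CPM between the bottom and top bin of library 1 and from 47740 to 162800 CPM in library 2. Lox was 2.04-fold (95% counting interval 1.83 to 2.28) and 1.496-fold (1.30 to 1.72) higher in the top bin. Plod2 was 2.26-fold (1.90 to 2.70) and 1.38-fold (1.15 to 1.67) higher. Pcolce was 1.11-fold and 1.30-fold higher, so 3 members had intervals above 1 in both libraries. The bins were measured for the members only, so the share of all genes with such intervals is not known. The count is therefore not read as a result about the members, and the intervals leave out the spread between cells.

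Serpinh1 and Fkbp10 went the other way in osteoblast-like cells. Serpinh1 in the top bin was 0.915 (0.872 to 0.96) and 0.631 (0.597 to 0.666) of its level in the bottom bin, and Fkbp10 was 0.803 and 0.756. The median UMI count per cell was 17981 in the bottom and 7791 in the top bin of library 2, but 26231 and 29578 in library 1, and the part of depth was not tested. The class joins a cluster led by Ifitm5 and one led by Plk4. In library 2 these had Col1a1 at 96520 and 81490 CPM and Serpinh1 at 4157 and 4680 CPM. In library 1 they had Col1a1 at 100000 and 106700 CPM and Serpinh1 at 4307 and 4175 CPM. The part of this cluster difference in the bins was not tested. With all UMIs as the denominator, which holds more collagen in the top bin, 1 member in place of 3 stayed above 1 in both libraries.

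In P-SSC-like cells of library 2, where Col1a1 went from 2596 to 20820 CPM, Pcolce was 1.84-fold (1.70 to 1.99), Serpinh1 1.74-fold (1.61 to 1.89), and Lox 1.52-fold (1.08 to 2.15) higher in the top bin. Library 1 had 7 cells in each bin. The class joins 2 clusters that differ in Col1a1, at 6486 and 15550 CPM in library 2, with Pcolce at 1224 and 1608 and Serpinh1 at 1249 and 1505 CPM, and the part of this cluster difference in the bins was not tested. In chondrocyte-like cells, Loxl2 was 1.71-fold and 2.08-fold, P4ha1 1.48-fold and 1.55-fold, P4ha2 1.44-fold and 1.47-fold, and Plod2 1.36-fold and 1.16-fold higher in the bin with the most Col2a1, which held 9 and 40 cells. Serpinh1 stood at 0.978 and 1.16 of its level in the bin with the least.

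**Figure D4:**
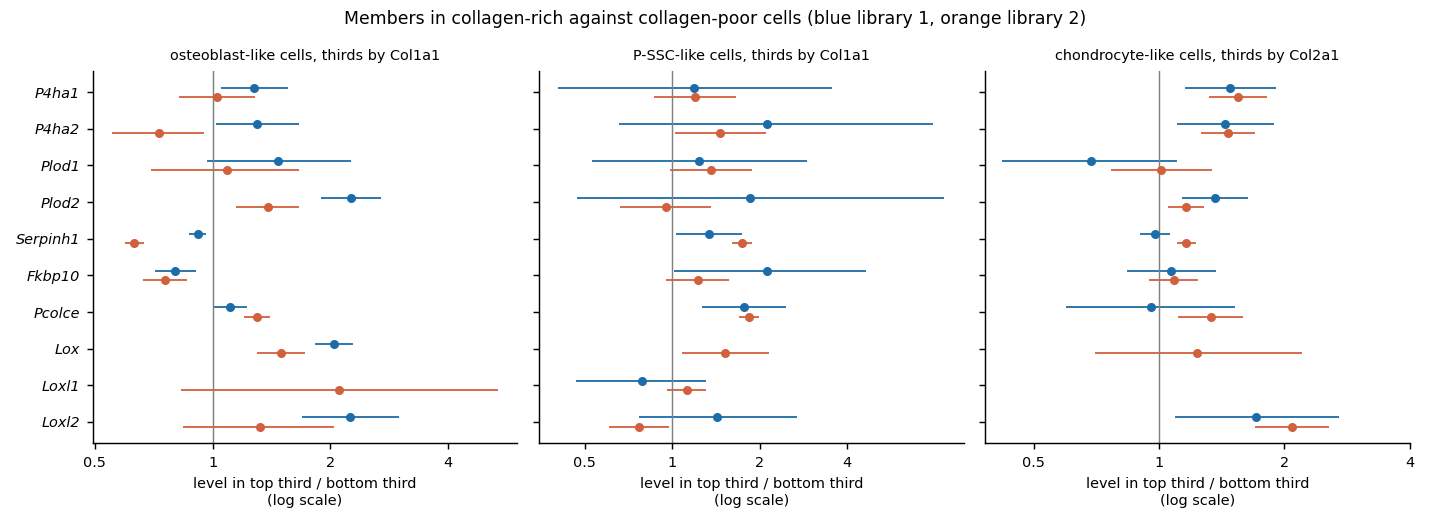
Member level in the bin of cells with the most Col1a1 or Col2a1 over that in the bin with the least, on a log axis, for library 1 (blue) and library 2 (orange) with exact 95% counting intervals. Members with under 4 UMIs in either bin are not drawn. In osteoblast-like cells Lox and Plod2 lie right of 1 and Serpinh1 and Fkbp10 left of it in both libraries.

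In the Spp1-high class, 4 of the 8 chondrocyte markers were found, and none was among its 10 leading genes in the clustering of stromal cells. It had more Col10a1 and less Col2a1 than the other chondrocyte-like cells. Col10a1, the collagen of hypertrophic cartilage, stood at 82060 and 45030 CPM there and at 954 and 751 CPM in the other chondrocyte-like cells, and Col2a1 at 20370 and 15120 against 51350 and 38930 CPM. Since the class was set apart after its leading genes were seen, no test was made. Collagens together were 11.7% and 7.10% of its UMIs, against 9.36% and 6.92% in the other chondrocyte-like cells.

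Most members had lower CPM in that class than in the other chondrocyte-like cells, although its collagen share was not lower. CPM here leaves out the scaling factors of the tests, which were 0.566 and 0.806 for Spp1-high sums and 1.108 and 1.067 for chondrocyte-like sums. Applying them would raise every ratio given for this class, and this was not done. How far the ratios of P4ha1 and P4ha2 would stay below 1 was not tested. The share of all genes with lower CPM in this class was not computed, so the count is not read as a result about the members. Plod2 stood at 63.0 and 82.9 CPM, 0.0703 (95% counting interval 0.0475 to 0.101) and 0.121 (0.0889 to 0.162) of its level in the other chondrocyte-like cells. Serpinh1 stood at 691 and 833 CPM, 0.167 and 0.283 of that level. Fkbp10 was at 0.124 and 0.233, Plod1 at 0.175 and 0.26, P4ha2 at 0.385 and 0.519, and P4ha1 at 0.49 and 0.618 of it.

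Lox went in the other direction. It stood at 358 and 273 CPM in Spp1-high cells, 5.16-fold (3.85 to 7.00) and 17.0-fold (12.5 to 23.4) higher than in the other chondrocyte-like cells. Loxl2 was 2.06-fold (1.60 to 2.66) higher in library 1 and at 0.868 (0.692 to 1.08) in library 2.

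**Figure D5:**
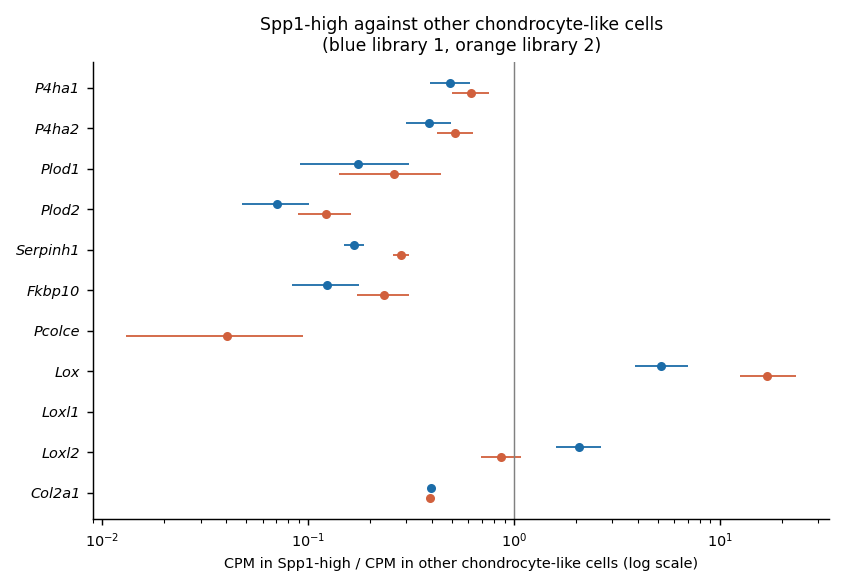
Level in Spp1-high cells over that in the other chondrocyte-like cells (log axis) for the members and Col2a1, in library 1 (blue) and library 2 (orange), with exact 95% counting intervals. Levels are CPM without scaling factors between sums, which would raise every ratio drawn. Pairs with under 4 UMIs on either side are not drawn. Lox lies right of 1 in both libraries and Plod2, Serpinh1, Fkbp10, Plod1, P4ha1, and P4ha2 lie left of it.

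Detection per cell followed these levels. Thinned to 1000 UMIs per cell, an expected 54.9% and 34.6% of osteoblast-like cells had a Lox UMI (96.8% and 84.0% unthinned), against 2.75% and 1.23% of chondrocyte-like cells (7.41% and 10.0%). Loxl1 was expected in 28.3% and 29.8% of thinned P-SSC-like cells and in 0.246% and 1.12% of osteoblast-like cells. Unthinned, 0.273% and 0.342% of B cell-like cells had a Lox UMI and 0.0456% and 0.0855% a Loxl1 UMI, at median depths of 3490 and 3756 UMIs.

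Over the 10 tested sums, the genes outside the members with the most similar pattern were Ikbip (Pearson r of log2(CPM + 1) = 0.995) and Rpn2 (0.99) for Serpinh1, Ckap4 (0.987) and Tmem97 (0.978) for Plod2, and Ssr1 (0.992) and Tmem214 (0.991) for Fkbp10. For P4ha2 they were Tmed9 (0.989) and Hsp90aa1 (0.985), and for P4ha1 Zdhhc12 (0.987) and Slc39a14 (0.986). Lox was most like Ttc39b (0.976) and Gja1 (0.975), Loxl1 most like Nenf (0.977) and Egfr (0.975), and Loxl2 most like Crlf2 (0.991) and Dstn (0.99). Plod1 was most like Tsr2 and Nucb2 (0.994 each) and Pcolce most like Dusp11 (0.982) and Rabac1 (0.974). Each pair had the highest r among the tested genes outside the members, so high values are partly a result of picking. The sums include skeletal muscle-like cells, where Lox, Loxl2, and Plod1 had no UMI. The correlations without these cells were not computed.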

How the data were processed

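Periosteal cells of 2 libraries were measured by 10x scRNA-Seq. The authors deposited raw UMI counts per gene and barcode, without normalization or pooling, and the submitters' processing notes name Cell Ranger 6.1.2 and mm10. The annotation release is not given in the sources used here. UMIs remove PCR copies, and intervals cover counting error only.

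The minimum per barcode was 500 genes and 500 UMIs, and the maximum mitochondrial share was 10%. Cells were integrated in Seurat 5.3.0 (R 4.3.3) with 3000 variable genes, 30 dimensions, and 15 principal components and clustered at resolution 0.8. Blood clusters were removed and the remaining 1571 cells clustered again, giving 15 clusters. A total of 101 collagen, member, and pathway genes were left out of clustering. Each cluster was named after the marker list found most completely in it (at least 3 markers, each with a log2 fold of at least 1 over other cells and a UMI in at least 20% of cells), unless another class had more markers among its 10 leading genes. The naming rule was chosen with the clusters in view. Scrublet in scanpy 1.11.5 called 124 doublets in library 1 and 1 in library 2, which were kept in the main analysis.

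UMIs of each class were summed by library. Classes holding 10 or more cells in both libraries entered 1 model without a library term. Genes passing filterByExpr (8450) were scaled by TMM and tested with edgeR 4.0.16 (quasi-likelihood, Benjamini-Hochberg adjustment, threshold 0.05). An SE is the absolute log2 fold change over the square root of F. DESeq2 1.42.0 was an alternative. Sums with the same number come from the same library and so are paired, and the correlation of their deviations between classes ranged from 0.03 to 0.37. The script was tested on simulated data. Members, lists, and comparisons were chosen with earlier results of these data known. The text names each member, Col1a1, Col1a2, and Col2a1, the 3 pathway genes with the largest called change of the same direction in both libraries per comparison, and the 2 genes most like each member. Kdelr2 and Kdelr3 were named after their values were seen. Alternatives left out sums or libraries or changed the clustering, scaling, filter, or denominator. RefSeq promoter windows were found for 5 members, and gene spans came from GENCODE M21 on GRCm38. Member levels of the unnamed stromal clusters are not reported here.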

Additional observations from a re-analysis of the deposited data

Results flagged for a closer look

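Reporter sequences were counted in libraries labelled WT. The kept cells of library 2 held 6837 EGFP UMIs, of which 2893 were in the chondrocyte-like class led by Mgp and Spp1, while library 1 held none. tdTomato had 1482 UMIs in library 1 and 4627 in library 2. EGFP was among the 10 leading genes of that class. The reporter sequences were not left out of the genes open to clustering and to the tests. No test result for them is given, and their part in the results was not tested.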

How the results depend on the processing

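Of 540 refitted member fold changes with a test, 497 kept their direction and side of the threshold, 25 lost the call, 8 gained it, and 10 changed sign. Of 60 values without a test, from leaving out a whole library, 2 changed sign, both of Loxl2 without library 2. Of 16 called member fold changes, 9 kept the call under all 18 alternatives with a test: P4ha1, Plod2, Loxl1, and Fkbp10 in osteoblast-like against P-SSC-like cells, P4ha1, P4ha2, Plod2, and Loxl1 in chondrocyte-like against P-SSC-like cells, and Lox in chondrocyte-like against osteoblast-like cells. Leaving out 1 sum, merging Spp1-high cells, and omitting scaling factors were chosen after seeing the data, and a lone remaining sum was assumed to vary like the others. Thinning moved 57 of 60 shares of cells.

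The values that changed sign passed no test under either setting, and the cause was not tested. Loxl2 in chondrocyte-like against P-SSC-like cells was at -0.059 with DESeq2 size factors, -0.06 with DESeq2, -0.068 without integration, -0.023 with pathway genes kept in clustering, and -0.36 without scaling factors. It ranged from -0.433 to 0.558 with a sum or library left out, and in osteoblast-like against P-SSC-like cells from -1.239 to 0.072. In chondrocyte-like against osteoblast-like cells it was at -0.261 without library 2, against 0.573 with both. Lox in chondrocyte-like against P-SSC-like cells was at 0.731 with Spp1-high cells merged. Loxl1 in chondrocyte-like against osteoblast-like cells ranged from -2.534 to 0.54.

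With a sum left out, 951 to 1281 genes and 4 to 6 members were called in osteoblast-like against P-SSC-like cells, 1271 to 1685 genes and 4 to 6 members in chondrocyte-like against P-SSC-like cells, and 723 to 950 genes and 1 to 2 members in chondrocyte-like against osteoblast-like cells. In the last comparison, 1823 genes were called without a filter on low counts, and 4 members with DESeq2 or without skeletal muscle-like cells. With all UMIs as the denominator, 1 member was above 1 in both libraries in the osteoblast-like bins.

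With the library as a replicate block, 2327, 2843, and 1531 genes were called in the 3 comparisons. Members called were 7, 8, and 4, with Lox added in chondrocyte-like against P-SSC-like cells and Plod1 and Plod2 in chondrocyte-like against osteoblast-like cells, and the block changed no other member call.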
